A study of Homo sapiens with 18 samples.

Results

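The Menin inhibitor SNDX-50469 and the bromodomain and extra-terminal (BET) protein inhibitor OTX015 were set directly against each other in MOLM13 cells, a human acute myeloid leukemia (AML) line that carries the MLL-AF9 fusion. The 4 libraries of the comparison were those labelled with 500 nM SNDX-50469, which the labels call VTP50469, and those labelled with 500 nM OTX015, 2 of each, out of 18 libraries of 8 groups in the series. Cells were cultured for 16 h in RPMI medium, and RNA was sequenced in bulk. No untreated library entered the contrast. The 2 untreated MOLM13 libraries are given beside it as a reference level, and they and the 2 libraries that received both agents shared the estimate of the spread. The study describes its MOLM13 libraries as biologic replicates of 1 cell line, so the values speak for that line at 1 dose of each agent and 1 time. The doses are equal in nM, which does not make them equal in potency.

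KMT2A encodes MLL, a histone methyltransferase that keeps developmental genes such as the HOXA cluster and MEIS1 active, and it reaches chromatin through the adaptor Menin. Fusion proteins such as MLL-AF9 keep the Menin-binding end of MLL and gain a partner that recruits elongation factors, and Menin inhibitors displace them from a limited set of genes that hold the cells in a progenitor state. BET proteins bind acetylated histones at enhancers and promoters across the genome and bring in the elongation kinase P-TEFb, and BET inhibitors release them from acetylated chromatin. Both classes of agent are studied in leukemia with MLL rearrangement, where both touch the MLL fusion program and MYC.

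The 4 libraries held 21046513 to 23684811 counts, so a level of 3 counts, taken as the floor of detection, was 0.127 to 0.142 CPM, the read count scaled to library size. The floor covers counting error only, whereas the SE and intervals of differences include the spread between libraries. Mitochondrial transcripts took 4.98% to 5.50% of the counts under SNDX-50469 and 5.56% to 5.60% under OTX015. Replicates lay close together, with a median absolute log2 difference over genes of 0.07 between the SNDX-50469 libraries and 0.09 between the OTX015 libraries, against 0.32 between a library of one agent and a library of the other. The 10 genes listed as markers of myeloid identity were all measured, and their summed level was 2146 to 2164 CPM under SNDX-50469, 1309 to 1311 CPM under OTX015 and 1902 to 1906 CPM untreated. Of 10 lymphoid markers 5 passed the filter on low counts, with a summed level of 47.9 to 48.8 CPM under SNDX-50469 and 13.5 to 14.4 CPM under OTX015. CD2 had no count in any of the 4 libraries, and NKG7 alone made up 38.8 and 10.1 CPM of those sums. Of 13 erythroid and megakaryocyte markers only the erythropoietin receptor EPOR passed, and HBA2, HBB, KLF1, PF4 and PPBP had no count in the 4 libraries. Of 10 epithelial and stromal markers 3 passed, and VIM, which myeloid cells also express, supplied most of their level with 167 against 418 CPM. The part of other cell types in the differences was not tested, and in bulk RNA fewer cells of a type cannot be told apart from less RNA per cell.

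The agents differed at a large part of the transcriptome. Of 14360 genes tested, 3233 (22.5%) were higher under SNDX-50469 than under OTX015 and 2880 (20.1%) were lower, by edgeR's quasi-likelihood test at an adjusted p below 0.05 with a difference of at least 0.32 on the log2 scale, the fold limit of the study. These percentages are the background against which the counts of each gene group are read. A difference of at least 2-fold was more often in the direction of SNDX-50469, with 1237 genes higher (8.61%) and 723 lower (5.03%). The median log2 difference over all tested genes was 0.01, with quartiles at -0.32 and 0.38. For 3218 genes (22.4%) the 95% confidence interval of the difference lay wholly within ±0.32, and 5029 genes were neither called nor bounded in this way. All differences below are log2 values, SNDX-50469 minus OTX015, ± SE, and levels are CPM after scaling by the trimmed mean of M-values (TMM).

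**Figure D1:**
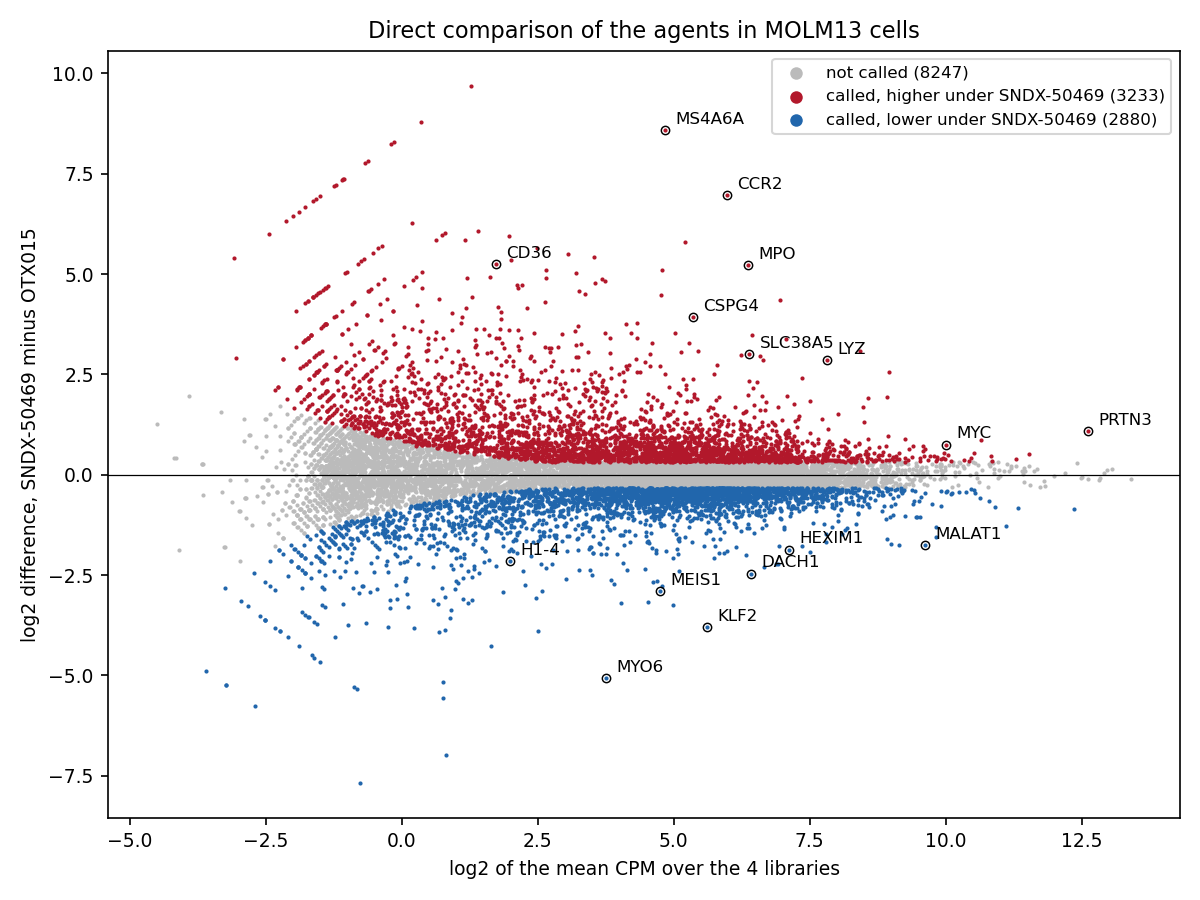
Log2 difference between SNDX-50469 and OTX015 (vertical axis) against the log2 of the mean CPM over the 4 libraries (horizontal axis) for every tested gene, each a point. Red and blue points are the 3233 and 2880 genes called higher and lower under SNDX-50469, grey points were not called, and the named genes reach from MS4A6A at 8.59 to MYO6 at -5.06.

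Most MLL target genes named by the study were lower under the Menin inhibitor, 8 of 12 members, with 1 higher and a median difference of -1.24. The study named these genes while reporting these samples, so their direction is not independent evidence. MEIS1, the homeobox partner of HOXA9 (GRCh38 chr2:66435125-66573869), measured 6.47 and 6.18 CPM in the SNDX-50469 libraries, 49.4 and 45.5 CPM in the OTX015 libraries and 36.0 and 40.5 CPM in untreated cells. The SNDX-50469 libraries stood far below the OTX015 and untreated ones, while the OTX015 libraries lay above the untreated ones, and the difference was -2.91 ± 0.10 (adjusted p = 2.46e-37). MEF2C, a transcription factor of progenitors and leukemia stem cells, had 41.8 and 41.8 CPM under SNDX-50469, 202 and 187 CPM under OTX015 and 159.5 and 162 CPM untreated, a difference of -2.22 ± 0.05 (adjusted p = 1.33e-44). The groups did not overlap for either gene.

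Other members separated in the same direction from different starting points. PBX3, which completes the HOXA9 and MEIS1 complex, differed by -1.90 ± 0.06 and the histone demethylase family gene JMJD1C by -1.78 ± 0.05. BMI1, a Polycomb protein of stem cell self-renewal, averaged 32.1 CPM under SNDX-50469, 48.0 CPM untreated and 128 CPM under OTX015, so that its difference of -1.99 ± 0.06 lay mostly on the OTX015 side of the untreated level. FLT3, the receptor tyrosine kinase that carries an activating mutation in this line, measured 158 and 158 CPM under SNDX-50469, 426 and 399 CPM under OTX015 and 254 and 266 CPM untreated. The untreated level lay between the agents, and the difference was -1.38 ± 0.04 (adjusted p = 2.59e-38). HOXA9 differed by -1.09 ± 0.07 and the cell cycle kinase CDK6 by -0.46 ± 0.04.

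Not every MLL target told the agents apart. MYB, a transcription factor on which AML cells depend, measured 410.4 and 394 CPM under SNDX-50469 and 395 and 404 CPM under OTX015 beside 449 and 473 CPM untreated, and its difference of 0.01 ± 0.04 had an interval of -0.07 to 0.09. LAMP5, at 897 CPM untreated, was at 525 against 614 CPM, a difference with an interval of -0.30 to -0.15 that also lay within ±0.32. SENP6 had 91.0 against 77.5 CPM and an interval of 0.12 to 0.34, and was called only without OTX015 replicate 1, at 0.32. TCF4 was the member that went the other way, with 12.4 against 6.52 CPM and a difference of 0.93 ± 0.13.

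The HOXA cluster on chromosome 7 repeated the pattern at lower levels. Of 11 tested genes and antisense transcripts 9 were lower under SNDX-50469 and 0 higher, with a median of -1.01. Against untreated cells, which both agents share as reference, the medians of the cluster were -0.40 for SNDX-50469 and 0.69 for OTX015. HOXA11 averaged 17.3 CPM untreated and 10.2 against 20.7 CPM, a difference of -1.01 ± 0.10. HOXA10 differed by -0.48 ± 0.07 and HOXA13 by -0.38 ± 0.09, although HOXA13 was above its untreated mean of 11.7 CPM under both agents, at 16.5 against 21.5 CPM. HOXA7 was low under both, with 2.89 CPM untreated and 1.12 against 1.42 CPM, and was not called. The antisense transcripts HOXA-AS2, HOXA-AS3 and HOXA10-AS are among the 9 that passed as lower. Without a known strand setting their reads cannot be told apart from those of the HOXA genes they overlap. The 9 calls are therefore not 9 separate HOXA genes.

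Among other regulators bound by MLL fusions, 7 of 13 tested genes were lower under SNDX-50469 and 1, the DNA demethylase gene TET1, was higher. DACH1, a transcriptional cofactor, had 27.5 and 25.1 CPM under SNDX-50469, 146 and 144 CPM under OTX015 and 126 and 134 CPM untreated, a difference of -2.46 ± 0.06 (adjusted p = 1.4e-44). The OTX015 libraries were slightly above the untreated ones and the SNDX-50469 libraries far below. CPEB2, an RNA-binding regulator of translation, differed by -2.38 ± 0.12, the zinc finger gene ZNF521 by -1.96 ± 0.06, SKIDA1 by -1.61 ± 0.06, and the chromatin organizer SATB1 by -1.47 ± 0.04. LMO2 (148 against 139 CPM) and RUNX2 (20.6 against 19.8 CPM) were not called.

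The genes of the Menin and MLL complexes themselves moved little. KMT2A had 75.1 against 72.8 CPM, with an interval of -0.07 to 0.15 that lay within ±0.32. MEN1, which encodes Menin, was not called at 139 against 116 CPM. Of 16 tested genes of these complexes 1 was higher, KMT2D (0.36 ± 0.05, or 0.24 and 0.27 and no longer called without OTX015 replicate 1 or SNDX-50469 replicate 1), and 4 were lower, among them the acetyltransferase gene KAT6A (-0.54 ± 0.04) and PSIP1 (-0.51 ± 0.05), whose product LEDGF tethers Menin to chromatin. The intervals of 7 members lay within ±0.32.

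**Figure D2:**
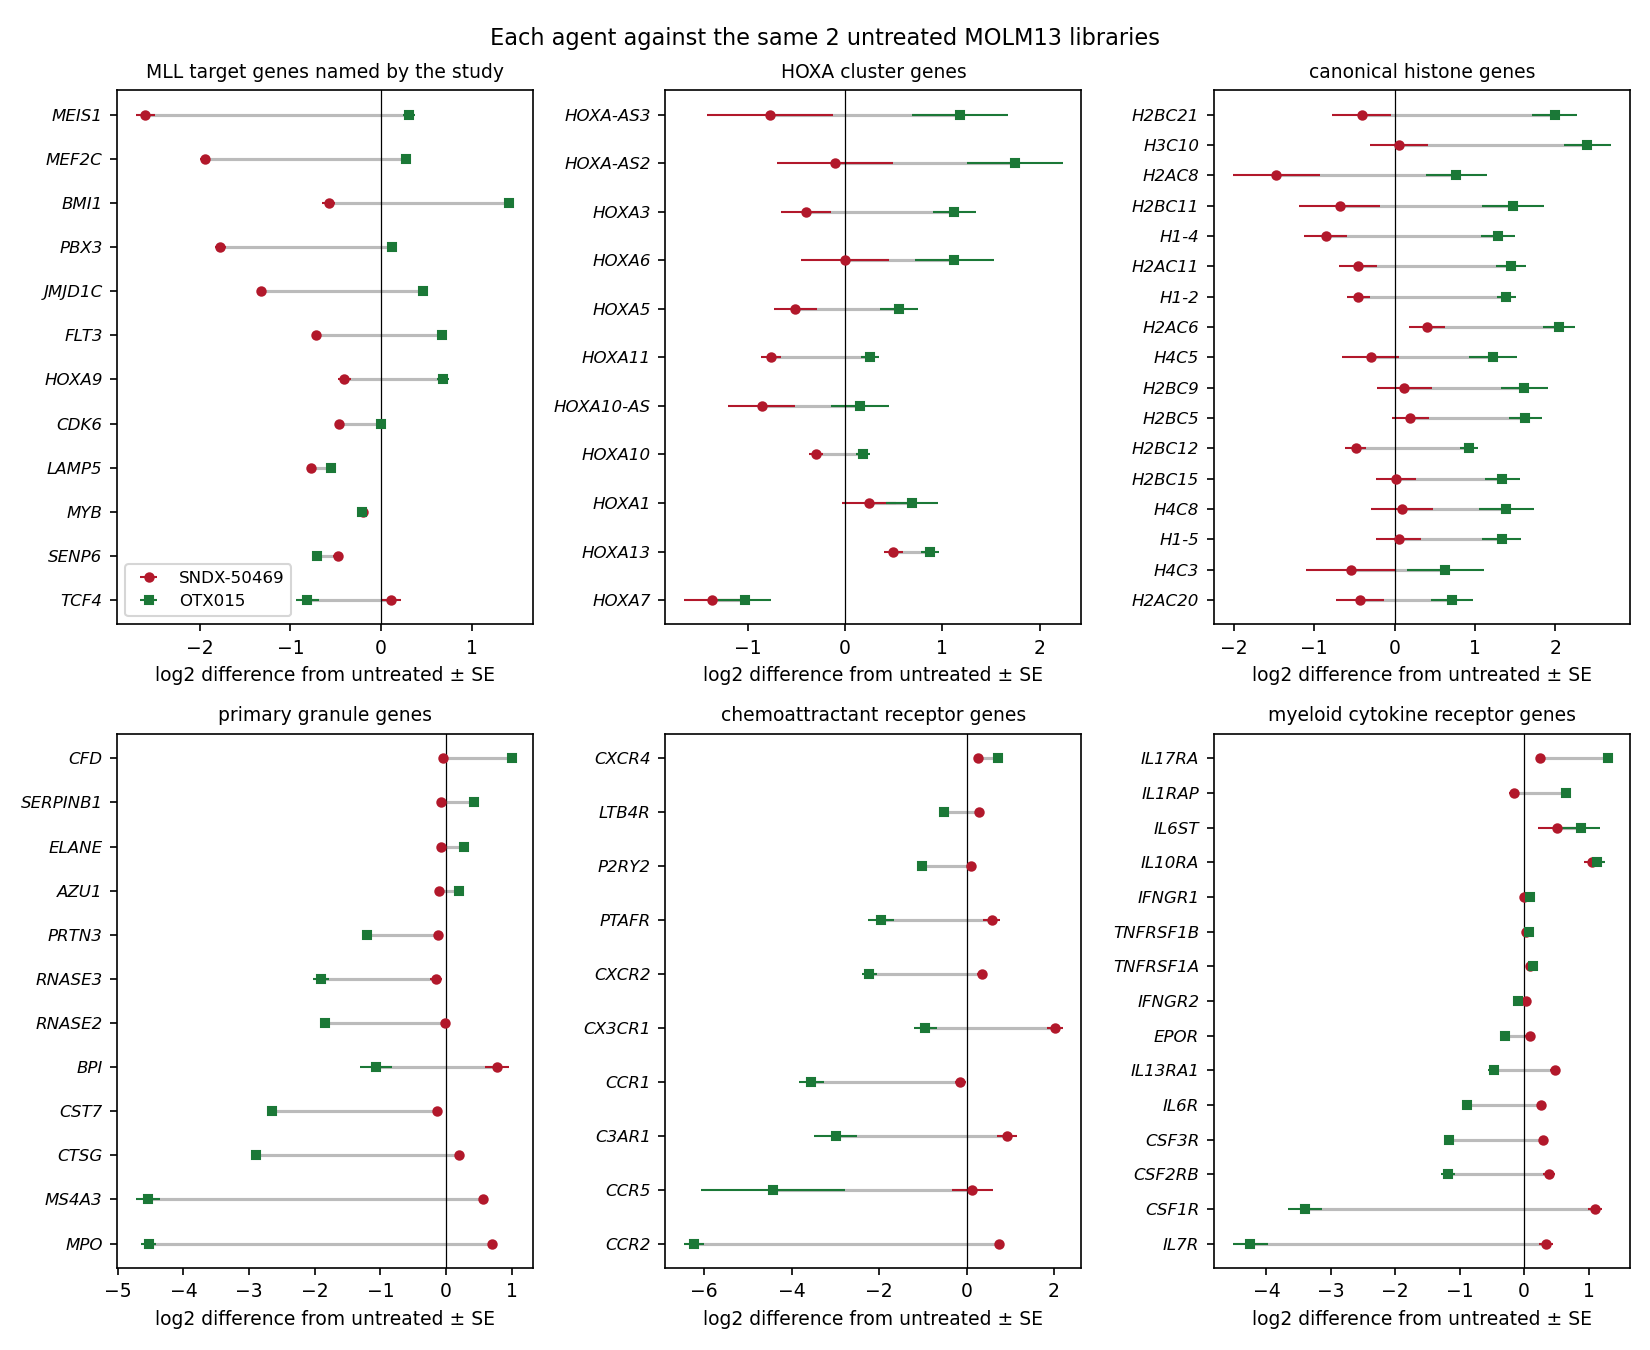
Log2 difference from untreated MOLM13 cells (horizontal axis, ± SE) of each member (rows) of 6 gene groups, with circles for SNDX-50469 and squares for OTX015, for members whose group means over untreated, SNDX-50469 and OTX015 summed to at least 1 CPM. Both agents are set against the same 2 untreated libraries, so the positions of a pair are not independent. MEIS1, MEF2C and PBX3 sit left of 0 only for SNDX-50469, whereas MPO, MS4A3 and CCR2 sit far left only for OTX015.

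Some transcription elongation genes were higher under OTX015, while 13 of the 20 tested were not called. HEXIM1, the inhibitor that holds P-TEFb inactive and a usual marker of BET inhibition, measured 59.8 and 60.3 CPM under SNDX-50469, 218 and 219 CPM under OTX015 and 49.8 and 51.5 CPM untreated. Both OTX015 libraries stood several-fold above the SNDX-50469 and untreated libraries, with a difference of -1.86 ± 0.05 (adjusted p = 1.12e-41). In the P-TEFb and elongation group, 6 of 20 members were lower under SNDX-50469 and 1, NELFCD, was higher. ELL2 (-1.78 ± 0.21), AFF1 (-0.83 ± 0.05) and AFF4 (-0.78 ± 0.07), subunits of the super elongation complex that MLL fusions recruit, were among the lower ones, as was the kinase CDK9 (-0.42 ± 0.05). MLLT3, the AF9 gene, had 14.5 against 16.6 CPM and was not called, except at -0.34 without OTX015 replicate 2.

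The BET family genes themselves and their partner acetyltransferases split. BRD2 averaged 403 CPM untreated and 401 against 817 CPM, a difference of -1.03 ± 0.04. BRD3 differed by -0.34 ± 0.05, a call that ended at -0.32 without SNDX-50469 replicate 2. The acetyltransferase genes KAT2B (-0.72 ± 0.15) and EP300 (-0.35 ± 0.04, or -0.31 and no longer called without OTX015 replicate 2) were lower under SNDX-50469, and KAT2A was the 1 higher member of 12, with 137 against 67.7 CPM and a difference of 1.01 ± 0.05. CREBBP had an interval of -0.14 to 0.06.

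All 19 tested members of the canonical histone group were lower under SNDX-50469, with a median of -1.64 and all of them past 2-fold. The group listed 27 genes, of which 21 were matched to a symbol and 19 passed the filter on low counts. These genes encode the histones deposited during DNA replication, and most of their transcripts end without a poly(A) tail. H1-4, a linker histone gene, had 1.23 and 1.69 CPM under SNDX-50469, 7.02 and 5.98 CPM under OTX015 and 1.69 and 3.59 CPM untreated. H2AC6 had 2.16 and 2.58 CPM, 7.88 and 6.97 CPM and 1.93 and 1.66 CPM in the same order. In both, the OTX015 libraries were above the SNDX-50469 and untreated libraries, and the SNDX-50469 libraries lay far closer to the untreated ones. The differences were -2.14 ± 0.24 for H1-4, -1.64 ± 0.18 for H2AC6 and -2.34 ± 0.28 for H3C10. The group's medians against untreated cells were -0.43 for SNDX-50469 and 1.39 for OTX015. No source used here states whether the libraries were made from poly(A) RNA, and reads of near-identical histone copies are uncertain.

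The sequence before the start sites of these genes was read because all of them were lower under SNDX-50469, and that of HEXIM1 because it led the elongation genes. The 250 bases before the RefSeq start (GRCh38.p14) are shown for H1-4 (chr6:26156079-26156328, + strand), H2AC6 (chr6:26123922-26124171, + strand), H3C10 (chr6:27809801-27810050, + strand) and HEXIM1 (chr17:45148225-45148474, + strand), 5′ to 3′, with the motifs TATAAA and CCAAT on either strand in capitals.
H1-4: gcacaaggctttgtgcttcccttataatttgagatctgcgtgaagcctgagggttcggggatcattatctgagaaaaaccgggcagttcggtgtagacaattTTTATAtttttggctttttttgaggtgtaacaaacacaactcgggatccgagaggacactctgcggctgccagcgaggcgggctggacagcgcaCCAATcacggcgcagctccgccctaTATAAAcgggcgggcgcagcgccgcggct
H2AC6: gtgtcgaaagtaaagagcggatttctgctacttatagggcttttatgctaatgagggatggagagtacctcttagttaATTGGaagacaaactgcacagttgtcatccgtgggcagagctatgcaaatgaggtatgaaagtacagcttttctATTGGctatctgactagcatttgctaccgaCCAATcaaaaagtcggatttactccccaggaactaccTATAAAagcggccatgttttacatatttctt
H3C10: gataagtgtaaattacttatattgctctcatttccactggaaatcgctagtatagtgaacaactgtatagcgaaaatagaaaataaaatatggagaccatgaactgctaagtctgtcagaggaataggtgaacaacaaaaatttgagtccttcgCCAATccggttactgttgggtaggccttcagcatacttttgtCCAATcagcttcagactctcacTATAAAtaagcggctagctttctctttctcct
HEXIM1: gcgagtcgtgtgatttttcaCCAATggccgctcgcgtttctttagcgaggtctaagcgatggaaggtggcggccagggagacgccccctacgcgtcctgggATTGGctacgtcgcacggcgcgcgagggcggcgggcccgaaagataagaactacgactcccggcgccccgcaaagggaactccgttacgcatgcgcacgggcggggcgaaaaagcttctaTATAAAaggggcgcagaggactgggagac
Each of the 4 holds TATAAA on its own strand, 29, 31, 32 and 29 bases before the start. TATAAA lay in 66.7% of the 18 tested histone genes with a sequence and in 5.39% of the 10133 tested genes with one. CCAAT lay in 88.9% and 35.2%. CCAAT was also frequent before groups that did not separate in this way, in 81.8% of mitosis genes. Over genes at least 2-fold apart, TATAAA stood in 9.49% of those higher and 10.6% of those lower under SNDX-50469, and the median GC content was 60.2% and 70%, against 65.2% over tested genes. Such matches are descriptions of letters, and no factor was measured at them.

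Genes of myeloid maturation formed the opposite pole, higher under SNDX-50469 than under OTX015. The primary granule group, made in promyelocytes, had 8 of 12 members higher, 3 lower and a median of 1.80. The group's medians against untreated cells were -0.06 for SNDX-50469 and -1.53 for OTX015, so the group as a whole was not raised by SNDX-50469. MPO, the myeloperoxidase of these granules (GRCh38 chr17:58269855-58280935), measured 162 and 159.8 CPM under SNDX-50469, 3.73 and 4.86 CPM under OTX015 and 99.9 and 98.7 CPM untreated. The untreated libraries lay between the agents, and the difference was 5.22 ± 0.12 (adjusted p = 1.13e-53). MS4A3, a membrane protein of granulocyte and monocyte progenitors, showed the same order with 53.8 and 53.9, 1.48 and 1.64 and 36.0 and 36.7 CPM and a difference of 5.10 ± 0.18. The serine protease gene CTSG differed by 3.08 ± 0.04 and the most abundant member, PRTN3 (8539 against 3997 CPM), by 1.10 ± 0.04.

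The granule genes did not move as a unit. RNASE2 (1.83 ± 0.05), RNASE3 (1.76 ± 0.12), the cystatin gene CST7 (2.52 ± 0.08) and BPI (1.85 ± 0.22) were higher under SNDX-50469. CFD, the complement protease adipsin, went the other way with 479 against 987 CPM and -1.04 ± 0.04, as did SERPINB1 (-0.51 ± 0.05) and, by a small margin, neutrophil elastase ELANE (-0.36 ± 0.04). AZU1, which lies next to PRTN3 and ELANE on chromosome 19, had 1564 against 1937 CPM and was not called, but passed at -0.36 without OTX015 replicate 1 and at -0.34 without SNDX-50469 replicate 2.

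Monocyte and granulocyte genes outside the granules were higher in 21 of 24 tested members and lower in 2, with a median of 1.56. Against the shared untreated cells the medians were 0.37 for SNDX-50469 and -0.85 for OTX015. LYZ, the lysozyme gene, measured 411 and 387 CPM under SNDX-50469, 57.1 and 52.4 CPM under OTX015 and 205 and 216 CPM untreated, so the agents lay on opposite sides of the untreated level, with a difference of 2.87 ± 0.05 (adjusted p = 7.95e-52). MNDA, a nuclear protein of myeloid cells, differed by 3.07 ± 0.10 and AIF1, an actin-binding protein of macrophages, by 3.28 ± 0.10. FCGR1A, the high-affinity IgG receptor, had 19.2 against 2.30 CPM beside 19.6 CPM untreated. The scavenger receptor CD36 had 137 and 163 counts under SNDX-50469 and 4 and 3 under OTX015, and the lectin receptor CLEC12A 87 and 72 and 1 and 1, so their folds rest on few counts. VCAN (-0.64 ± 0.09) and NLRP3 (-0.48 ± 0.05) were the lower members.

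Chemoattractant receptors showed the largest median of all groups, 2.53, with 9 of 13 higher and 2 lower. CCR2, the receptor by which monocytes leave the marrow (GRCh38 chr3:46354111-46360940), measured 127 and 123 CPM under SNDX-50469, 1.15 and 0.842 CPM under OTX015 and 73.1 and 77.0 CPM untreated. The OTX015 libraries held 24 and 18 counts where the SNDX-50469 libraries held 2884 and 2909, and the difference was 6.97 ± 0.22 (adjusted p = 1.13e-53). Its neighbor CCR1 on chromosome 3 differed by 3.41 ± 0.28, the interleukin 8 receptor CXCR2 by 2.58 ± 0.17, the fractalkine receptor CX3CR1 by 2.96 ± 0.23 and the complement receptor C3AR1 by 3.93 ± 0.48. Against untreated cells CX3CR1 differed by 2.01 ± 0.18 under SNDX-50469 and by -0.94 ± 0.27 under OTX015. CXCR4, which retains cells in the marrow, was lower under SNDX-50469 (-0.47 ± 0.05), as was the complement receptor C5AR1, on 2 and 4 against 11 and 14 counts (-2.14 ± 0.71).

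Receptors for growth factors and microbial products followed. In the myeloid cytokine receptor group 7 of 15 were higher, among them the macrophage colony-stimulating factor receptor CSF1R, with 19.2 and 20.6 CPM under SNDX-50469, 0.621 and 1.12 CPM under OTX015 and 10.01 and 8.62 CPM untreated, and a difference of 4.50 ± 0.26. IL7R differed by 4.59 ± 0.27, CSF3R by 1.46 ± 0.05, CSF2RB by 1.57 ± 0.11 and IL6R by 1.14 ± 0.04. The lower members were IL17RA, with 453 against 945 CPM and -1.06 ± 0.04, and IL1RAP (-0.82 ± 0.07). Of the Toll-like receptor group 8 of 13 were higher, with CD180 (3.29 ± 0.12), TLR6 (2.91 ± 0.29) and TLR4 (2.55 ± 0.12) in front. The 2 lower ones were TLR5, the flagellin receptor, on 3 and 3 against 16 and 14 counts (-2.40 ± 0.71), and IRAK3 (-0.33 ± 0.05, or -0.31 and no longer called without SNDX-50469 replicate 2).

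Adhesion molecules were higher in 9 of 15 and lower in 3. The leukocyte integrin chains ITGAL (0.88 ± 0.04), ITGB2 (0.57 ± 0.04), ITGA4 (0.72 ± 0.05) and ITGB7 (2.10 ± 0.14) and the selectin ligand SELPLG (1.77 ± 0.05) were higher under SNDX-50469. ITGB1 (-0.79 ± 0.05), ITGA5 (-0.51 ± 0.04) and ITGAV (-0.92 ± 0.11), the first of which pairs with ITGA4 as well as with ITGA5, were lower. In the surface antigen group, much of it studied as immunotherapy targets in AML, 9 of 15 were higher. CSPG4, the NG2 proteoglycan typical of MLL-rearranged leukemia, had 79.1 and 74.6 CPM under SNDX-50469, 4.44 and 5.61 CPM under OTX015 and 117 and 124 CPM untreated, which put both agents below untreated cells with a difference of 3.93 ± 0.11 between them. CD244 (4.89 ± 0.26), CD38 (1.84 ± 0.13), LILRB4 (1.73 ± 0.05) and CD33 (0.59 ± 0.05) were higher and the tetraspanin CD82 was lower (-1.81 ± 0.06). CD47 had an interval of -0.09 to 0.14.

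Effector genes of mature phagocytes gave mixed counts. Of the oxidase and lysozyme genes 4 of 7 were higher, with the oxidase core subunit CYBB at 25.9 against 2.44 CPM and 3.41 ± 0.16, while CYBA was not called at 382 against 345 CPM and RAC2 was lower (-0.57 ± 0.04). Of the S100 and annexin genes 5 of 15 were higher, 3 were lower and 7 were not called. ANXA1, a glucocorticoid-induced regulator of phagocyte migration, had 36.5 and 38.0 CPM under SNDX-50469, 2.63 and 2.76 CPM under OTX015 and 8.95 and 9.12 CPM untreated. The agents again lay on opposite sides of untreated cells, with a difference of 3.79 ± 0.14 (adjusted p = 5.54e-39). ANXA2 (-0.80 ± 0.04) and ANXA5 (-0.98 ± 0.05) were lower.

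**Figure D3:**
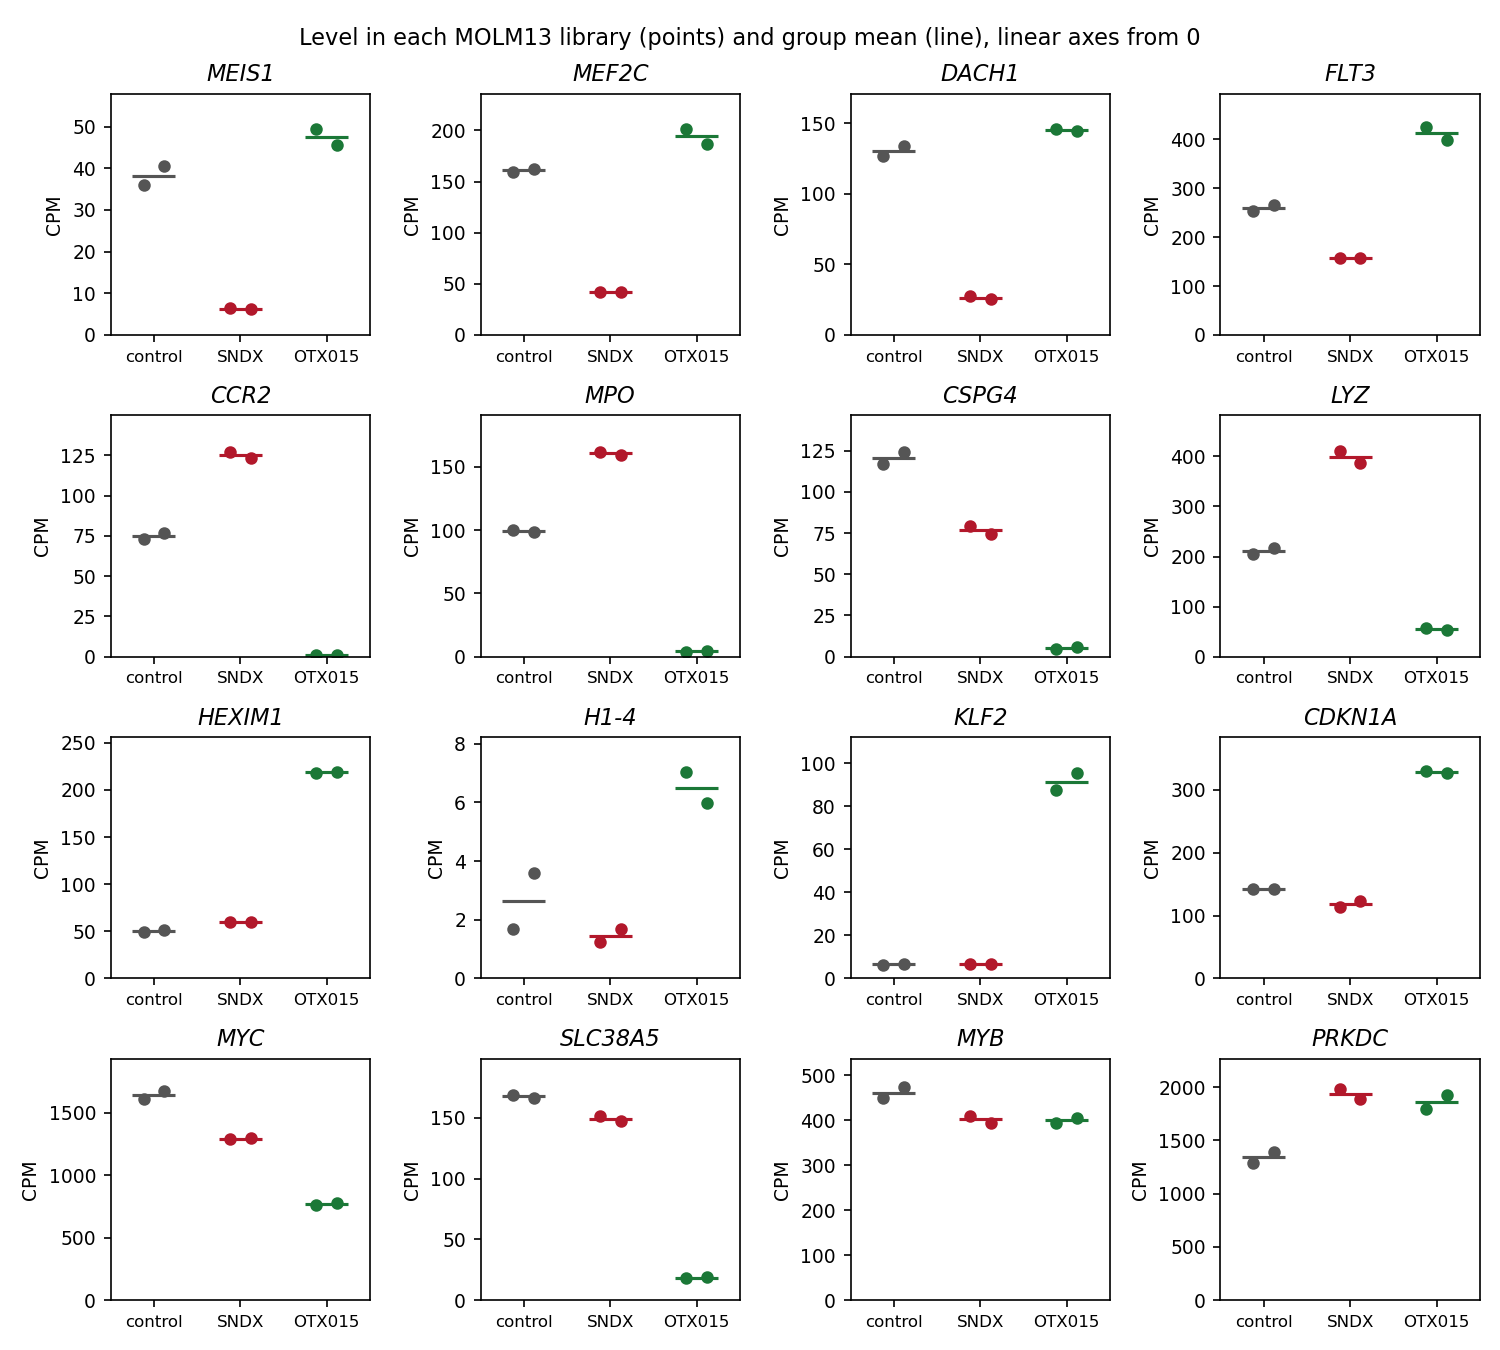
CPM (vertical axes, linear from 0) of 16 genes in each untreated, SNDX-50469 and OTX015 library of MOLM13 cells, with points for libraries and lines for the mean of 2. MEIS1, MEF2C, DACH1 and FLT3 are lowest under SNDX-50469, CCR2, MPO, CSPG4, LYZ, MYC and SLC38A5 are lowest under OTX015, HEXIM1, H1-4, KLF2 and CDKN1A are highest under OTX015, and the points of MYB and PRKDC lie at one level under both agents.

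Transcription factors of myeloid development split between the agents, with 6 of 16 higher under SNDX-50469 and 4 lower. Differences of the tested members ran from -5.24 to 4.65. CEBPE, the factor of late granulocyte maturation, had 8.58 and 8.30 CPM under SNDX-50469, 0.191 and 0.468 CPM under OTX015 and 4.04 and 4.31 CPM untreated, a difference of 4.65 ± 0.41. SPI1, the PU.1 gene, differed by 0.85 ± 0.04 with an untreated level near that of SNDX-50469 (394 CPM untreated, 366 against 203 CPM), and IRF5 by 0.94 ± 0.08. EGR1, an immediate early factor of the monocyte path, had 5.19 and 3.98 CPM under SNDX-50469, 30.4 and 52.5 CPM under OTX015 and 11.0 and 12.3 CPM untreated. Both OTX015 libraries lay above the SNDX-50469 and untreated ones, though apart from each other, with a difference of -3.18 ± 0.17. CEBPA was at one level, with 341 against 371 CPM and an interval of -0.20 to -0.04. Among stem and progenitor factors GATA2 (1.31 ± 0.07), LYL1 (1.10 ± 0.05) and HMGA1 (0.55 ± 0.04) were higher and ID2 (-2.06 ± 0.07), RUNX1 (-0.66 ± 0.04) and SOX4 (-0.67 ± 0.04) were lower, 7 and 4 of 15 in all.

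MYC and part of the growth genes were higher under SNDX-50469. MYC measured 1287 and 1296 CPM under SNDX-50469, 764 and 773 CPM under OTX015 and 1607 and 1670.0 CPM untreated, so both agents lay below untreated cells and OTX015 lay lower, with a difference of 0.75 ± 0.04 (adjusted p = 4.09e-27). It was the only member of 13 MYC and MAX network genes that was higher, and 5 were lower, with TXNIP, a brake on glucose uptake, at -1.29 ± 0.05. Ribosome biogenesis genes were higher in 13 of 38 and lower in 0, with a small median of 0.23, and cytosolic ribosomal protein genes in 33 of 72 and 0, with a median of 0.31. The rRNA methyltransferase FBL (0.67 ± 0.04) and the snoRNP proteins NHP2 (0.74 ± 0.05) and GAR1 (0.58 ± 0.08) were among the former. NPM1 (1490.0 against 1244 CPM) and NCL (2103 against 1937 CPM) were not called. Medians against untreated cells were -0.16 for SNDX-50469 and -0.41 for OTX015 in ribosome biogenesis genes. In ribosomal protein genes they were -0.18 and -0.51, so both groups lay below untreated cells under both agents. Ribosomal protein genes have many near-identical copies in the genome, so single values are uncertain.

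Of 34 translation factors 7 were higher, a share near the 22.5% of all tested genes, with a median of 0.08. EIF4B (0.88 ± 0.04) and EIF5A (0.48 ± 0.04) were among them, while the translational repressor EIF4EBP2 was lower (-0.65 ± 0.04). Nucleotide and folate genes were higher in 9 of 26, with the mitochondrial folate enzymes MTHFD1L (0.84 ± 0.05) and SHMT2 (0.58 ± 0.04). RRM2, the regulated subunit of ribonucleotide reductase, was lower by a wide margin, with 239 and 238 CPM under SNDX-50469, 747 and 708 CPM under OTX015 and 262 and 266 CPM untreated, a difference of -1.61 ± 0.04. Hosts of small nucleolar RNAs were higher in 9 of 15, among them SNHG7 (0.96 ± 0.06) and EPB41L4A-AS1 (1.12 ± 0.09). TERT, the telomerase catalytic subunit, had 31.1 against 13.9 CPM and a difference of 1.16 ± 0.09.

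Cell cycle genes separated at the level of G1 control and hardly in mitosis. In the CDK4/6, D cyclin and CDK inhibitor group 9 of 18 were lower under SNDX-50469 and 3 were higher. CDKN1A, the p21 inhibitor, had 114 and 122 CPM under SNDX-50469, 331 and 328 CPM under OTX015 and 142 and 143 CPM untreated, a difference of -1.48 ± 0.04 (adjusted p = 2.21e-38). CDKN2C (-1.33 ± 0.05) and CDKN2D (-1.28 ± 0.08), inhibitors of CDK4 and CDK6, and the cyclins CCNE2 (-1.48 ± 0.08) and CCND3 (-1.10 ± 0.04) were lower as well. CCND1 (1.49 ± 0.12), CCND2 (0.63 ± 0.05) and CDK4 (0.37 ± 0.05) were higher. Of 27 mitosis genes 18 had intervals within ±0.32, 2 were higher and 3 were lower, the last count being 1 without OTX015 replicate 1 and 5 without OTX015 replicate 2. Of 29 replication genes 15 lay within ±0.32, 4 were higher and 7 were lower. Of 28 repair genes 16 lay within ±0.32, 2 were higher and 3 were lower. CCNB1 had an interval of -0.13 to 0.05, ATM of -0.10 to 0.10 and PRKDC of -0.02 to 0.13, although PRKDC averaged 1342 CPM untreated and 1937 and 1865 CPM under the agents. Members of these groups that were called included UBE2C, the ubiquitin carrier of anaphase, higher at 1.01 ± 0.05, and H2AX, the histone variant that marks DNA breaks, lower at -1.06 ± 0.04.

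Signaling genes downstream of FLT3 were lower under SNDX-50469 in 15 of 23 and higher in 2, with a median of -0.76. The group's medians against untreated cells were -0.095 for SNDX-50469 and 0.83 for OTX015. The group as a whole thus lay near untreated cells under SNDX-50469 and above them under OTX015. SOCS2, a STAT5 target that dampens cytokine signaling, had 6.64 and 6.73 CPM under SNDX-50469, 43.5 and 41.6 CPM under OTX015 and 33.5 and 37.8 CPM untreated, so the OTX015 and untreated libraries lay near each other and the SNDX-50469 libraries far below, with a difference of -2.67 ± 0.10 (adjusted p = 7.94e-35). IER3, an early survival gene, stood apart the other way round, with 7.13 and 7.03 CPM under SNDX-50469 near the untreated 6.40 and 5.07 CPM and 44.9 and 51.4 CPM under OTX015. SOCS1 (-1.40 ± 0.10), DUSP5 (-1.31 ± 0.13) and the kinase PIM1 (-0.96 ± 0.06) were lower, and SPRY1 (1.29 ± 0.13) and ETV4 (1.20 ± 0.07) were higher. CISH (53.4 against 64.2 CPM) and PIM2 (31.5 against 33.0 CPM), both STAT5 targets, were not called, although CISH passed at -0.33 without OTX015 replicate 1.

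KLF2, a factor of cell quiescence (GRCh38 chr19:16324826-16328685), was among the genes furthest toward OTX015, with 6.60 and 6.60 CPM under SNDX-50469, 87.5 and 95.3 CPM under OTX015 and 6.35 and 6.87 CPM untreated. The SNDX-50469 and untreated libraries were at one level, and the difference was -3.79 ± 0.10 (adjusted p = 5.84e-45). KLF5 (-1.45 ± 0.19) and KLF6 (-0.54 ± 0.08) were lower too, and KLF7 (0.93 ± 0.12) was the 1 higher member of 12 KLF genes. FOXO genes and their targets were lower in 8 of 15, led by FOXO1 (-1.64 ± 0.19), and higher in 4, including the germinal center repressor BCL6 (1.82 ± 0.25).

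Inflammatory genes were divided. The NF-kappaB, TNF and immediate early group had 13 of 25 lower under SNDX-50469 and 7 higher. TNF had 77.5 and 72.9 CPM under SNDX-50469, 263 and 309 CPM under OTX015 and 61.2 and 69.2 CPM untreated, a difference of -1.93 ± 0.05, and ZFP36, which degrades TNF mRNA, differed by -1.67 ± 0.05. CXCL8, the neutrophil attractant interleukin 8, had 8.01 and 8.68, 0.335 and 0.281 and 2.84 and 3.59 CPM in that order, on 7 and 6 counts under OTX015, and a difference of 4.74 ± 0.42, and the feedback inhibitor TNFAIP3 differed by 1.03 ± 0.06. Interferon-stimulated genes were higher in 10 of 26, with TRIM22 at 3.53 ± 0.11 and XAF1 at 2.61 ± 0.17, and lower in 7, with HELZ2 at -2.39 ± 0.09 and IRF7 at -1.83 ± 0.09.

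Most antigen presentation genes were higher under SNDX-50469 than under OTX015. Against untreated cells the median of MHC class I genes was 0.065 for SNDX-50469 and -0.63 for OTX015. That of MHC class II genes was 1.04 and -1.07, so only class II was clearly above untreated cells under SNDX-50469. All 4 measured MHC class II genes were higher, among them the invariant chain CD74 (1.03 ± 0.04) and the class II transactivator CIITA, with 6.51 and 6.77 CPM under SNDX-50469, 1.05 and 0.795 CPM under OTX015 and 2.599 and 1.98 CPM untreated, a difference of 2.84 ± 0.27. Most classical class II chains were below the filter on low counts. Class I presentation genes were higher in 10 of 14, with the peptidase ERAP2 at 2.55 ± 0.11, the immunoproteasome subunit PSMB8 at 117 against 49.2 CPM, the class I activator NLRC5 at 1.14 ± 0.05 and HLA-B at 0.71 ± 0.04. B2M, the light chain of class I, was lower (-0.35 ± 0.04, or -0.32 and no longer called without OTX015 replicate 1). Reads of HLA genes can be lost or shared among alleles and copies, so these values are uncertain.

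Survival and death genes pointed both ways. BCL2 (0.52 ± 0.05) and BCL2L1 (0.78 ± 0.11), antiapoptotic members of the family, were higher under SNDX-50469, and MCL1, another antiapoptotic member, was lower, with 173 and 172 CPM under SNDX-50469, 348 and 344 CPM under OTX015 and 169.5 and 176 CPM untreated, a difference of -1.01 ± 0.04 (adjusted p = 1.37e-31). BCL2A1 had 2.42 against 0.329 CPM and 2.85 ± 0.45. Of the BH3-only genes, which trigger apoptosis, BCL2L11, the BIM gene, was lower (-0.80 ± 0.06) and BMF was higher (0.92 ± 0.08), while BBC3 (47.3 against 55.5 CPM) and BAX (163 against 148 CPM) were not called. p53 targets were lower in 9 of 18 and higher in 3. TIGAR (-0.96 ± 0.10) and PLK3 (-0.77 ± 0.10) followed CDKN1A, FAS was higher (0.90 ± 0.16), and MDM2, the p53 feedback inhibitor, had an interval of -0.32 to -0.09.

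The following metabolic groups had more members lower than higher under SNDX-50469, but with small medians, from -0.30 to -0.05. Of all tested genes 20.1% were lower and 42.57% were called in either direction. Of the cholesterol genes 8 of 26 were lower under SNDX-50469 and 2 higher, with a median of -0.13. INSIG1 led the lower ones (-1.23 ± 0.04). The efflux pump ABCA1 was higher, with 1.23 CPM untreated and 4.62 against 1.30 CPM, a difference of 1.83 ± 0.25. Glycolysis and pentose phosphate genes were lower in 9 of 27 and higher in 3, with a median of -0.05. The glucose transporter SLC2A1 stood at -1.16 ± 0.06 and pyruvate kinase PKM at -0.81 ± 0.04. Iron, heme and antioxidant genes were lower in 8 of 19 and higher in 0, with HMOX1 at -1.91 ± 0.25, NQO1 at -1.14 ± 0.07 and the ferritin chains FTL at -0.86 ± 0.04 and FTH1 at -0.72 ± 0.04. Lysosome and autophagy genes were lower in 10 of 26 and higher in 3, with a median of -0.20. SQSTM1 (-0.84 ± 0.05) and ULK1 (-0.85 ± 0.05) were among the lower ones.

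Oxidative phosphorylation and stress programs leaned the other way. Nuclear oxidative phosphorylation genes were higher in 16 of 46 with a median of 0.20, while none of the 13 mitochondrial genome transcripts was called, and 10 of these lay within ±0.32. The ATF4 program, which serves amino acid supply, was higher in 12 of 25 and lower in 4, with differences from -1.14 to 4.32. Among the higher members were STC2 at 2.13 ± 0.16, CHAC1 at 2.12 ± 0.28, TRIB3 at 1.09 ± 0.06 and ATF4 itself at 0.53 ± 0.04. Chaperone genes of the unfolded protein response were higher in 11 of 22, with CALR at 0.86 ± 0.03 and HSP90B1 at 0.64 ± 0.04. Against untreated cells the medians of nuclear oxidative phosphorylation genes were -0.20 for SNDX-50469 and -0.47 for OTX015. Those of the ATF4 program were -0.10 and -0.48, and those of the chaperone genes -0.14 and -0.37. Each median was thus below untreated cells under both agents, and further below under OTX015. SLC38A5, a glutamine and serine transporter, had 151 and 147 CPM under SNDX-50469, 17.96 and 19.3 CPM under OTX015 and 169 and 166 CPM untreated, a difference of 3.00 ± 0.07 (adjusted p = 5.34e-48). The untreated and SNDX-50469 libraries lay together and the OTX015 libraries far below.

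**Figure D4:**
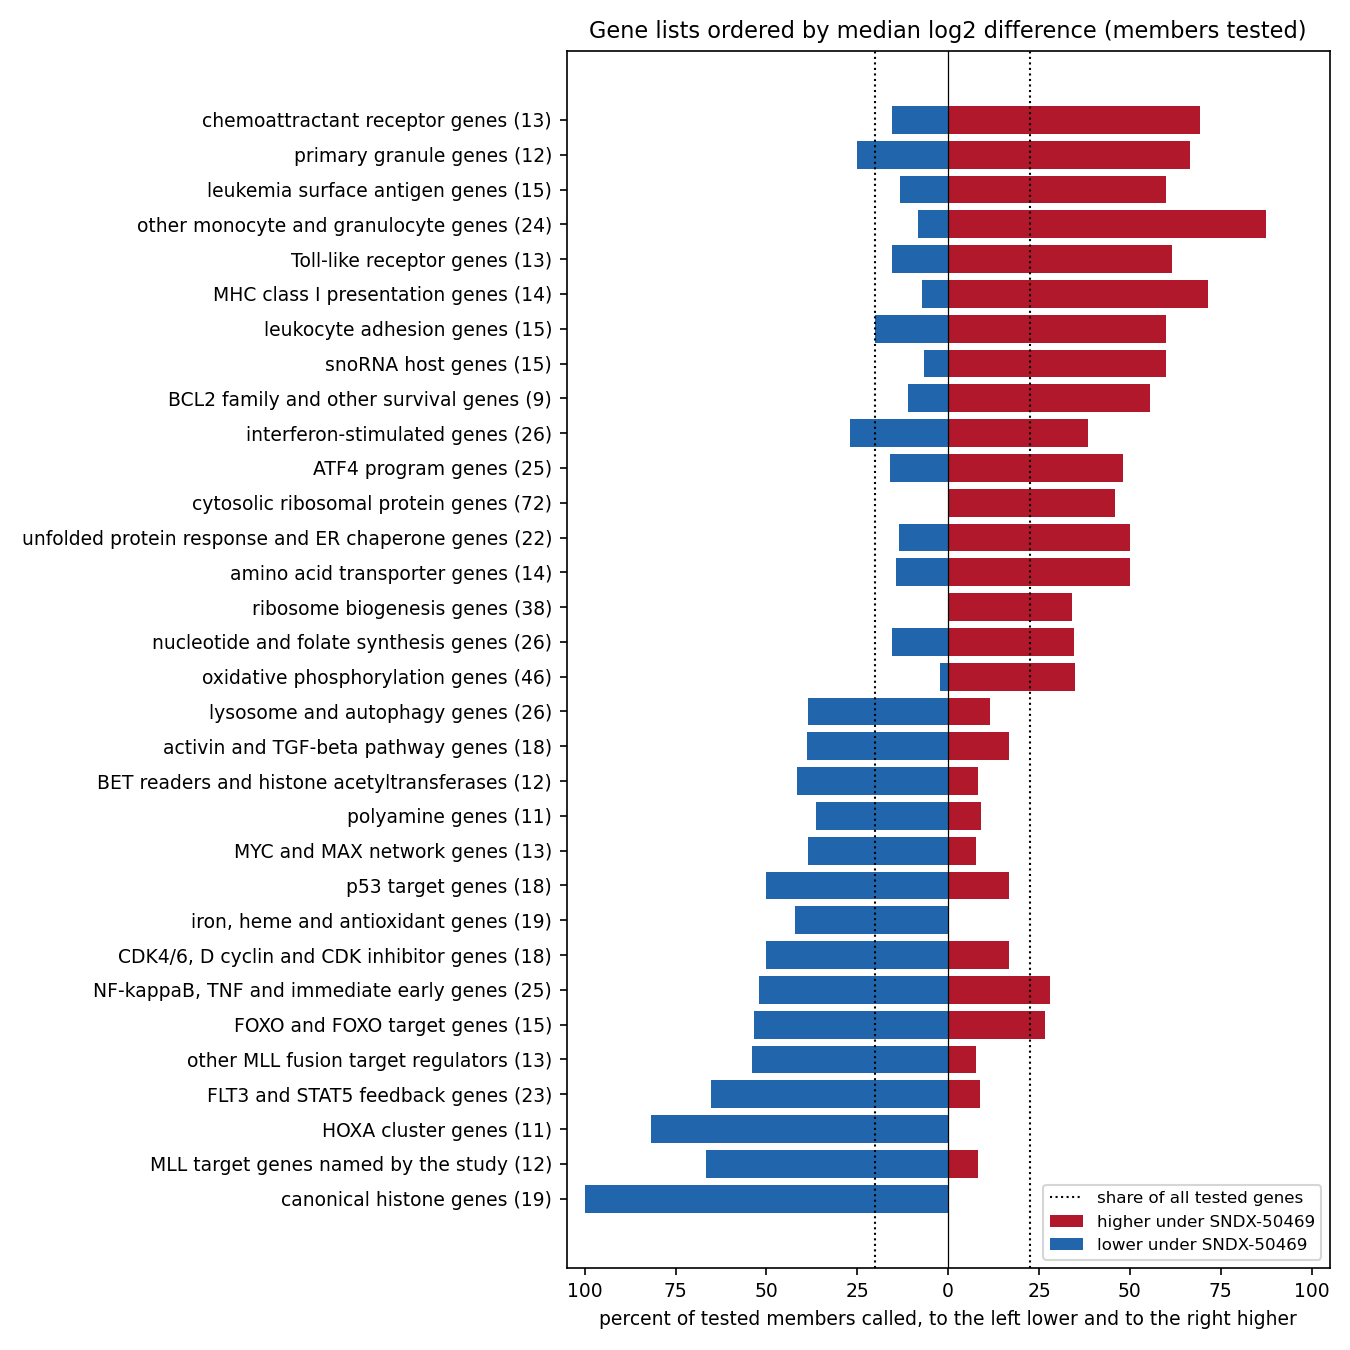
Percent of tested members called higher (to the right) or lower (to the left) under SNDX-50469 for the gene groups with the lowest and the highest median difference among those with at least 9 tested members, with the number tested in parentheses. Dotted lines mark the shares over all tested genes, 22.5% and 20.1%, and the canonical histone bar reaches 100% on the lower side.

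Gene length went with direction. Tested genes with a RefSeq position were split into 4 bins of equal size by the span of the gene. In the shortest bin, up to 9640 bases, 27.1% were higher under SNDX-50469 and 15.2% lower, and in the longest, over 62665 bases, 18.8% were higher and 29.5% lower. The medians were 0.14 and -0.11. Apart from this split by span, the nuclear noncoding RNAs NEAT1 (-2.30 ± 0.07) and MALAT1 (-1.76 ± 0.05) were both lower under SNDX-50469. Together they took 0.036% to 0.042% of the counts under SNDX-50469, 0.128% to 0.147% under OTX015 and 0.022% to 0.026% untreated. The part of RNA composition in the differences of long genes was not tested.

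**Figure D5:**
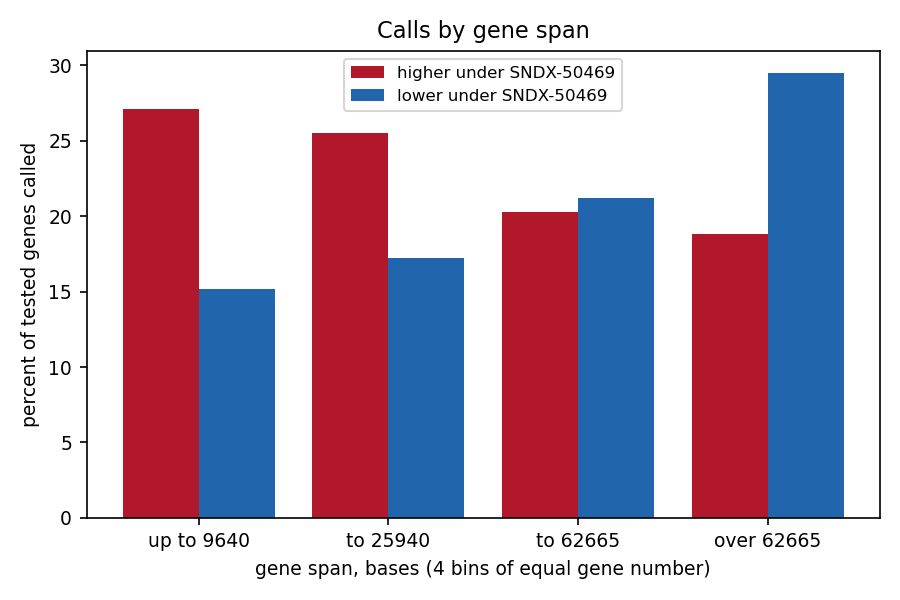
Percent of tested genes called higher and lower under SNDX-50469 (vertical axis) in 4 bins of gene span (horizontal axis, bases). The share called higher runs from 27.1% in the shortest bin to 18.8% in the longest, and the share called lower from 15.2% to 29.5%.

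Among called genes with at least 5 CPM under the higher agent and libraries that did not overlap, the largest differences were partly outside these groups. MS4A6A, a monocyte membrane protein, held 1315 and 1320 counts in the SNDX-50469 libraries and 4 and 2 in the OTX015 libraries, or 57.9 and 55.9 against 0.191 and 0.0935 CPM, with 42.6 and 42.8 CPM untreated. The difference was 8.59 ± 0.57, and its size rests on the few counts under OTX015. It lies on chromosome 11 with MS4A3. NAPSB (5.80 ± 0.20), TIFAB (5.50 ± 0.38), the neuronal homeobox gene CUX2 (5.43 ± 0.32), the cannabinoid receptor CNR2 (5.34 ± 0.54) and RGS18 (4.94 ± 0.54), a regulator of G protein signaling in blood cells, followed. SIGLEC6 had 7.13 and 8.25 CPM under SNDX-50469 and 1.78 and 2.11 CPM untreated, on 3 and 2 counts under OTX015. The T cell receptor locus transcripts TRAC (5.66 ± 0.50) and TRD-AS1 (4.73 ± 0.40) were also higher than under OTX015. Their SNDX-50469 means of 11 and 8.90 CPM lay below the untreated means of 17.7 and 18.7 CPM.

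Toward OTX015 the largest difference among such genes was that of MYO6, a motor protein of endocytosis, with 0.660 and 0.889 CPM under SNDX-50469, 26.3 and 26.1 CPM under OTX015 and 5.29 and 5.39 CPM untreated. Here the agents lay on opposite sides of the untreated level, and the difference was -5.06 ± 0.25 (adjusted p = 9.06e-37). The guanine nucleotide exchange factor FGD6 (-4.26 ± 0.41), the hyaluronidase CEMIP2 (-3.89 ± 0.27), DPYSL3 (-3.25 ± 0.10), a cytoskeletal protein of growing neurons, NXN (-3.20 ± 0.14), the p53 cofactor PPP1R13B (-3.07 ± 0.23) and L1CAM (-2.76 ± 0.24), a neural adhesion molecule, followed, all with untreated means below those of OTX015. AQP3, a water and glycerol channel, had 7.30 and 7.03, 44.6 and 44.8 and 24.7 and 24.3 CPM in the order SNDX-50469, OTX015 and untreated, and ITGB5 3.87 and 4.11, 24.8 and 24.7 and 8.71 and 8.67 CPM, so that SNDX-50469 was the lowest and OTX015 the highest in both.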

How the data were processed

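RNA of 18 libraries was sequenced, and the 8 of MOLM13 cells were analysed here. The authors deposited whole-number read counts per Ensembl gene for every library, not normalized. The submitters' processing notes name STAR and hg38, whereas the study's methods describe TopHat2 and Cufflinks2, so the aligner is unsure. Which program counted the reads, on which strand and against which annotation was not given in the sources used here.

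Of 58037 gene IDs, 40931 had a symbol, and the 17106 without held 0.377% of the counts. The test was the quasi-likelihood one of edgeR 4.0.16 (glmQLFit, glmQLFTest) under R 4.3.3, after filterByExpr and TMM scaling, in a group-means model of the 8 MOLM13 libraries, as SNDX-50469 minus OTX015. Calls needed an adjusted p (Benjamini-Hochberg, 14360 genes) below 0.05 and a log2 difference of at least 0.32, the study's fold limit. The SE comes from the working weights of the fit at the estimate and its quasi-likelihood variance, and 95% intervals from the log2 difference over the square root of F. The fits were tested on simulated data with known changes. Replicates differed by more than sampling noise (chi-square per degree of freedom 2.01 and 2.53), and their numbers did not pair the libraries (r = 0.05 between the agents). With 2 libraries per group, p-values measure the spread between these libraries.

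The groups compared, the 53 gene groups, the 5 lists of markers and mitochondrial transcripts and the tests were chosen with earlier results of these data known. Named genes are group members, or among the 20 largest differences in each direction with a call, at least 5 CPM under the higher agent and libraries that did not overlap. The 8 list entries without a match were left out. Promoter sequences are from RefSeq (GRCh38.p14), taken by symbol. Alternatives were other scalings, filters, library sets and tools (DESeq2 1.42.0, limma 3.58.1 with voom, glmTreat), a replicate block, and leaving out each library.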

Additional observations from a re-analysis of the deposited data

How the results depend on the processing

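The counts of genes higher, lower and 2-fold apart stayed within 1.5-fold under the 20 alternatives. The count of genes within ±0.32 did so where it was computed, which left out DESeq2, limma-voom and glmTreat. Over other settings, genes higher under SNDX-50469 ran from 2386 (glmTreat) to 3435 (upper-quartile factors), genes lower from 1993 (glmTreat) to 3227 (limma-voom), genes 2-fold apart from 1605 to 2154, and genes within ±0.32 from 2326 to 3240 (3217 with intervals from the SE itself, an alternative chosen after seeing the data). The share of calls that were higher ran from 47.0% to 56.1%, and the median of all genes from -0.04 to 0.03. Leaving out each library gave 3006 to 3264 higher and 2719 to 2940 lower. With a replicate block 3208 genes were higher and 2860 lower, and the numbers share no more than a number. Counts of 40 of the 53 gene groups stayed within 1.5-fold. Under glmTreat lower members fell to 2 for the Menin and MLL complexes, 3 for BET readers, 5 for Polycomb and SWI/SNF, 3 for the MYC network, 3 for DNA replication and 1 for mitosis, and higher members to 10 for oxidative phosphorylation, 1 for telomerase and shelterin and 0 for MEF2. Higher telomerase and shelterin members were also 1 in a fit of all 18 libraries and without a filter, and 1 to 2 with a library left out. Lower mitosis members were 1 to 5 with a library left out. Lower DNA repair members were 5 without a filter and 3 to 5 with a library left out. Translation factors rose to 11 under limma-voom, BH3-only genes to 4 under upper-quartile factors, and paraspeckle genes were 1 once NEAT1 and MALAT1 were removed. Of 213 called genes named with values, 205 kept their call under each of the 20 alternatives that tested them, 8 lost it under at least 1 and none reversed; 4 uncalled genes gained one. The cause of these changes was not tested, beyond glmTreat's stricter null. Values near the floor of 3 counts, as for MS4A6A, CD36 and CLEC12A under OTX015, fix direction better than size.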

Other observations

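Members of the activin and transforming growth factor beta pathway were lower under SNDX-50469 in 7 of 18 and higher in 3. INHBA, which encodes the activin A subunit, had 16.6 and 18.9 CPM under SNDX-50469, 2.20 and 1.496 CPM under OTX015 and 49.3 and 50.1 CPM untreated, so both agents were below untreated cells and OTX015 was lower, with a difference of 3.27 ± 0.19 (adjusted p = 1.1e-28). The ligand gene TGFB1 (-0.77 ± 0.04), its receptor TGFBR1 (-0.58 ± 0.05) and the mediator SMAD4 (-0.55 ± 0.07) were lower under SNDX-50469. Polyamine genes were lower in 4 of 11 and higher in 1. SAT1, the enzyme that starts polyamine breakdown, had 23.4 and 26.3 CPM under SNDX-50469, 94.8 and 98.7 CPM under OTX015 and 18.2 and 17.6 CPM untreated, with a difference of -1.96 ± 0.06, and ODC1, which starts polyamine synthesis, was also lower (-0.50 ± 0.04).

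Polycomb and SWI/SNF genes were lower in 10 of 32 and higher in 2, with PBRM1 at -0.59 ± 0.05, and 13 members had intervals within ±0.32. Amino acid transporters were higher in 7 of 14 and lower in 2, where the creatine transporter SLC6A8 stood at -2.71 ± 0.14 and the cystine transporter SLC7A11 at 1.98 ± 0.18. Shelterin genes TINF2 (-0.75 ± 0.06) and TERF2IP (-0.50 ± 0.06) were lower, opposite to TERT. Of the Schlafen genes, SLFN5 had 1.58 and 1.40 CPM under SNDX-50469, 7.69 and 8.13 CPM under OTX015 and 0.385 and 0.674 CPM untreated, a difference of -2.41 ± 0.20, and SLFN11, which is studied as a marker of sensitivity to DNA damage, differed by -0.41 ± 0.05.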
